A study of Mus musculus with 9 samples.

Results

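The 10 chemokine ligand genes Ccl2, Ccl3, Ccl4, Ccl5, Ccl6, Ccl7, Ccl9, Cxcl2, Cxcl10 and Cxcl16 were taken by name from an RNA-seq table of 40993 genes, and all 10 were found. The table held FPKM (fragment numbers scaled by transcript length and by the mapped fragments of the library) for BV2 cells, an immortalized mouse microglial line, in 9 libraries. In 3 libraries the cells were non-treated (control), in 3 they were given 10 µg/ml MNPs@SiO2(RITC) (low dose) and in 3 they were given 100 µg/ml (high dose), each treatment for 12 h. MNPs@SiO2(RITC) are magnetic nanoparticles with a cobalt ferrite core and a silica shell that holds the dye rhodamine B isothiocyanate. Every group was of this 1 immortalized line and not of tissue microglia, and nothing in the labels said that replicates came from separate cultures, so the p-values measure the spread between these libraries, which may be technical.

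The macrophage identity of the line was visible in its markers. Cd68, a lysosomal glycoprotein of macrophages, lay between 376 and 469.9 FPKM over the 9 libraries, and 8 of 10 microglia and macrophage markers reached a mean of 1 FPKM. The markers of resting microglia were low: Tmem119 had a mean of 2.15 FPKM, P2ry12 of 0.0934 and Cx3cr1, the fractalkine receptor, of 0.0368. Markers of neurons, astrocytes, oligodendrocytes and T and NK cells were all under a mean of 1 FPKM. Among endothelial and neutrophil markers, Kdr lay between 61.3 and 74.6 FPKM and S100a8 between 15.5 and 32.6 FPKM, while Pecam1 had a mean of 0.150 FPKM and Ly6g was listed at 0 in every library.

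Chemokines are small secreted proteins that direct the movement of leukocytes by binding to G protein-coupled receptors on the target cell. They are named after the spacing of their conserved cysteines, CC or CXC. Microglia and macrophages release them on inflammatory stimulation, when NF-kB and, for some members, interferon-activated factors drive their transcription. Ccl2 and Ccl7 attract monocytes through CCR2, Ccl3 and Ccl5 act through CCR1, and Ccl4 is an inflammatory ligand encoded next to Ccl3. Ccl6 and Ccl9 are rodent ligands of CCR1. Cxcl2 attracts neutrophils through CXCR2, Cxcl10 is an interferon-inducible ligand of CXCR3, and Cxcl16 is made as a membrane protein whose receptor is CXCR6.

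Of the 10 ligands, 8 lay on chromosome 11 and 2 on chromosome 5 in the coordinates of the deposited table (GRCm38). All 10 were protein-coding genes. Ccl2 (chr11:82035571-82037453) and Ccl7 (chr11:82045712-82047525) stood within 12.0 kb, both on the plus strand. Ccl5, Ccl9, Ccl6, Ccl3 and Ccl4 followed within 138.9 kb, from chr11:83525778 to chr11:83664683. Cxcl16 (chr11:70453983-70459984) was apart from both clusters. On chromosome 5, Cxcl2 spanned chr5:90903899-90905909 on the plus strand and Cxcl10 chr5:92346638-92348889 on the minus strand. The transcripts of 9 of the 10 ligands held no 31-base word of another chemokine ligand, and Cxcl2 shared 7.59% of its words with Cxcl3, so a small part of the Cxcl2 reads could belong to either gene.

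The ligands fell into groups of abundant, intermediate and low expression in control cells. Ccl3, Ccl4 and Ccl2 were abundant, with means of 231 ± 15.0, 149.7 ± 15.3 and 149.0 ± 19.6 FPKM (SD, n = 3). Ccl9, Ccl7 and Ccl6 had means of 19.0 ± 4.41, 18.8 ± 3.08 and 12.8 ± 1.46 FPKM. Cxcl16, Ccl5 and Cxcl10 had means of 5.98 ± 0.662, 5.10 ± 0.540 and 4.61 ± 0.529 FPKM, and Cxcl2 was the lowest with 0.532 ± 0.0894 FPKM. Ccl4 and Ccl2 overlapped between control libraries, as did Ccl9 and Ccl7, Cxcl16 and Ccl5, and Ccl5 and Cxcl10, so the order within these pairs was not resolved. The 3 abundant ligands held between 87.2% and 90.1% of the summed FPKM of the 10 ligands in each library. The sum ran from 547 to 635 FPKM in control libraries, from 572 to 599.7 at low dose and from 566 to 711 at high dose, and the groups overlapped.

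**Figure D1:**
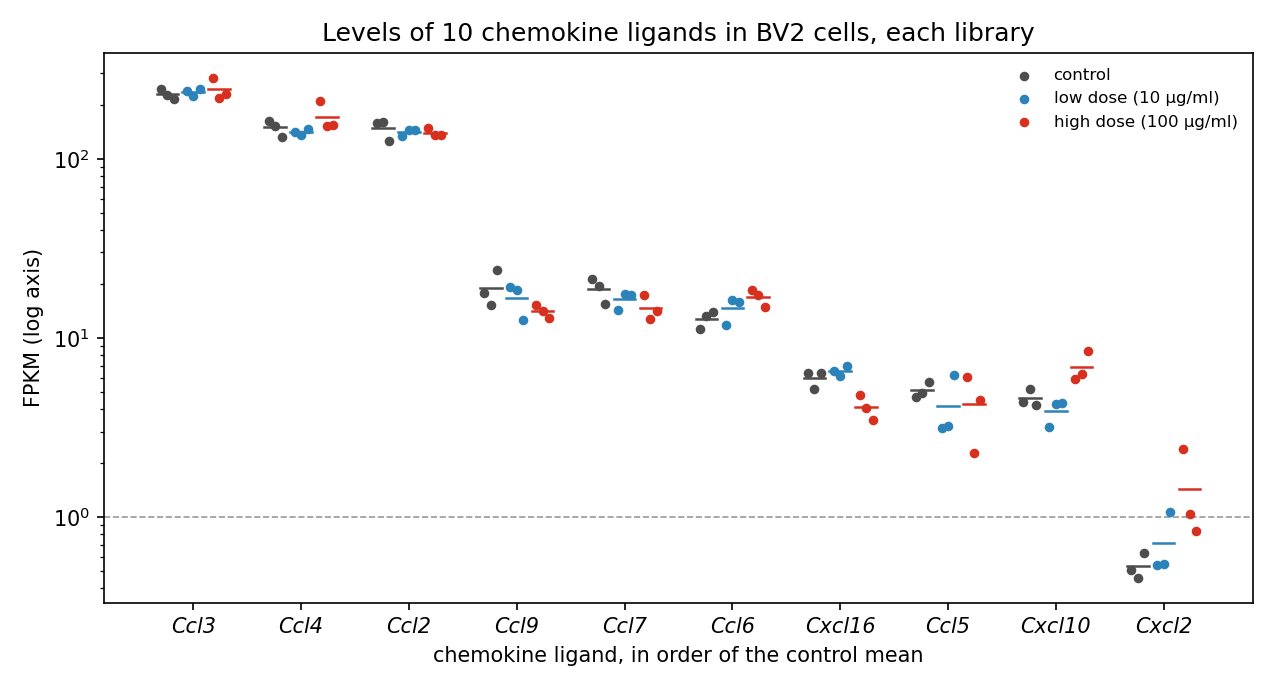
FPKM (log axis) of 10 chemokine ligands in each of 9 BV2 libraries. Dots are libraries, short lines are group means of 3 libraries, and the dashed line marks 1 FPKM, the lowest mean that was tested. Ccl3, Ccl4 and Ccl2 lie above 100 FPKM in all 9 libraries, and only Cxcl2 lies near the dashed line.

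None of the ligands passed the adjusted threshold in any of the 3 comparisons. High dose against control asked whether the libraries of cells given 12 h with the particles differed from the control libraries. In it, 236 of 11161 tested genes (2.11%) passed at an adjusted p under 0.05, against 0 of 9 tested ligands. High dose against low dose called 95 genes (0.851%) and again 0 of 9 ligands, and low dose against control called 0 genes (0%), ligands included. Cxcl2, with a mean of 0.892 FPKM over the 9 libraries, was the member below the minimum of 1 FPKM. At an unadjusted p under 0.05, 4 of 9 ligands stood out at high dose against control (Ccl6 and Cxcl10 with higher values, Ccl7 and Cxcl16 with lower values), where 19.4% of all tested genes did. The corresponding counts were 0 of 9 at low dose against control, with 3.28% of all genes, and 2 of 9 at high dose against low dose (Cxcl10 and Cxcl16), with 14.3% of all genes. By a looser cutoff, an unadjusted p under 0.05 with a 1.5-fold difference in mean FPKM, 0 of 9 ligands were called at high dose against control (2.4% of all genes), 0 of 9 at low dose against control (0.672%) and 2 of 9, Cxcl10 and Cxcl16, at high dose against low dose (1.63%). The median log2 fold change of the 9 ligands was -0.08, -0.08 and 0.01 at high dose against control, low dose against control and high dose against low dose, with medians near 0 for all tested genes. The 3 comparisons share libraries pairwise and are not independent of each other.

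**Figure D2:**
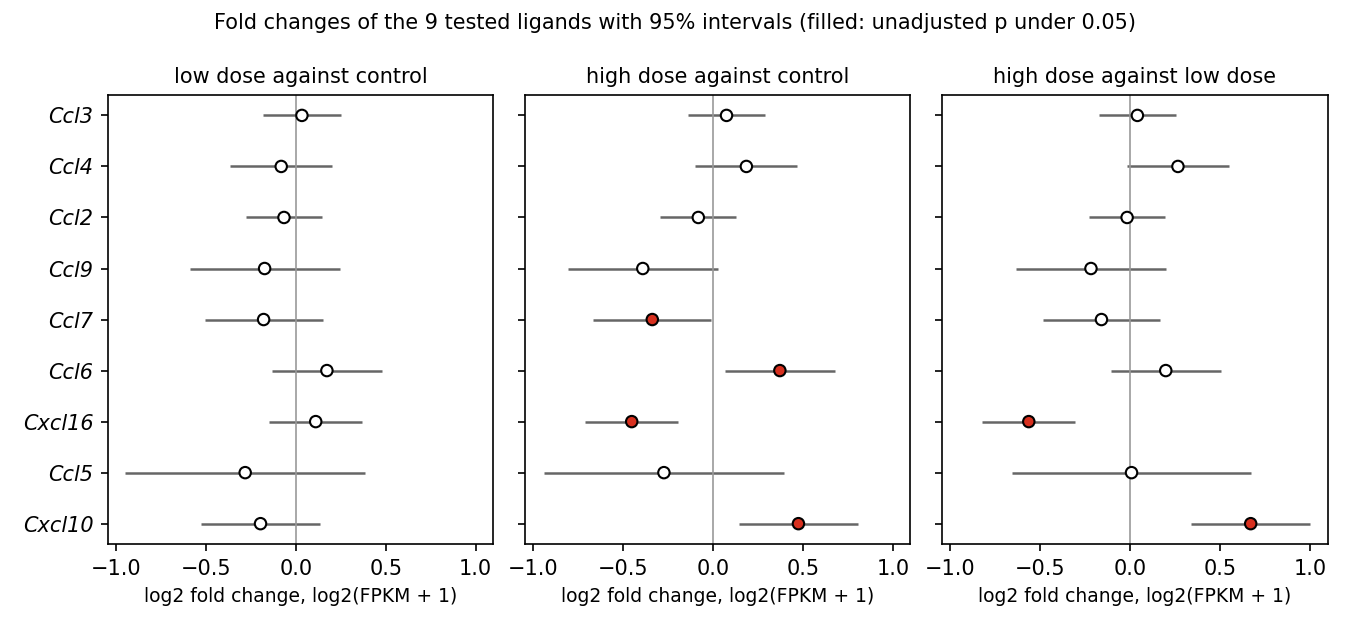
Log2 fold changes on the log2(FPKM + 1) scale of the 9 tested ligands in 3 comparisons, with 95% confidence intervals from limma. Filled points have an unadjusted p under 0.05. Cxcl10 and Cxcl16 lie on opposite sides of 0 in both comparisons with the high dose.

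Cxcl10, the CXCR3 ligand, had the largest positive fold change among the 9 tested ligands. It was at 4.41, 5.21 and 4.21 FPKM in the control libraries and at 3.18, 4.25 and 4.31 FPKM at low dose. At high dose it was at 5.87, 6.27 and 8.40 FPKM. All 3 high-dose libraries were above all 6 others, and the low-dose and control libraries overlapped. The mean at high dose was 1.49 times that of the control and 1.75 times that at low dose. The log2 fold change was 0.48 ± 0.15 (SE; unadjusted p = 0.00982, adjusted p = 0.125) against control and 0.67 ± 0.15 (unadjusted p = 0.00131, adjusted p = 0.0853) against low dose, so neither passed the adjusted threshold. The interval of the low-dose difference from control ran from -0.52 to 0.13.

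Cxcl16, the transmembrane CXCR6 ligand, showed the opposite pattern. Its levels were 6.34, 5.21 and 6.38 FPKM in control cells and 6.54, 6.10 and 6.93 FPKM at low dose. At high dose they were 4.82, 4.08 and 3.47 FPKM. All 3 high-dose libraries were below all 6 others. The high-dose mean was 0.689 times the control mean and 0.632 times the low-dose mean. The log2 fold change was -0.45 ± 0.11 (unadjusted p = 0.00354, adjusted p = 0.0841) against control and -0.56 ± 0.11 (unadjusted p = 0.000885, adjusted p = 0.0748) against low dose. Without high dose replicate 1 these became -0.55 (adjusted p = 0.0351) and -0.66 (adjusted p = 0.0310), which was the only case among the alternatives run in which a ligand passed the adjusted threshold. Cxcl10 and Cxcl16 were the ligands that kept an unadjusted p under 0.05 in both high-dose comparisons in all 19 alternatives.

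Cxcl2, a neutrophil attractant, was listed at 0.505, 0.459 and 0.632 FPKM in control cells and at 0.538, 0.548 and 1.07 FPKM at low dose. At high dose it was at 2.39, 1.04 and 0.840 FPKM. All high-dose libraries were above all control libraries, while 1 low-dose library lay among those of the high dose. The ratio of means at high dose to control was 2.68, and it was 1.77 without high dose replicate 1, the highest of the 9 libraries. With all genes in the fit the log2 fold change was 0.61 (adjusted p = 0.294). The depth estimated from the spacing of low values put Cxcl2 at only about 7.6 to 45.9 fragments in a library, so that counting error alone was large.

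Ccl6 and Ccl9, neighbouring genes that encode CCR1 ligands, differed in direction. Ccl6 was at 11.2, 13.3 and 13.97 FPKM in control cells, at 11.8, 16.2 and 15.96 at low dose and at 18.6, 17.3 and 14.9 at high dose. Ccl9 was at 17.8, 15.4 and 23.9 FPKM in control cells, at 19.1, 18.6 and 12.6 at low dose and at 15.3, 14.2 and 12.8 at high dose. The high-dose libraries were above all control libraries for Ccl6 and below all of them for Ccl9, the latter by a margin of under 0.2 FPKM. The log2 fold change at high dose against control was 0.37 ± 0.13 (unadjusted p = 0.0220, adjusted p = 0.177) for Ccl6. For Ccl9 it was -0.39 ± 0.18 (unadjusted p = 0.0640, adjusted p = 0.292), and -0.22 (adjusted p = 0.572) without control replicate 3, the highest of the 9 libraries. The ratio of Ccl6 to Ccl9 FPKM was 0.629, 0.866 and 0.584 in the control libraries, 0.618, 0.873 and 1.27 at low dose and 1.22, 1.22 and 1.16 at high dose. Ccl9 was the more abundant of the pair in every control library and Ccl6 in every high-dose library. How often the ratios of other gene pairs separate these groups was not computed.

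Counting the tested ligands whose high-dose and control libraries did not overlap gave 4 of 9, Ccl6 and Cxcl10 above and Ccl9 and Cxcl16 below, where the share was 23.8% over all tested genes. For low dose against control the count was 0 of 9, with 10.7% over all genes. For high dose against low dose it was 3 of 9 (Ccl4 and Cxcl10 above, Cxcl16 below), with 19.4% over all genes. With 3 libraries a group, an exact permutation test of a single gene cannot go below a two-sided p of 0.1.

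The upstream sequences of Cxcl10, Cxcl2 and Ccl6 are shown because these were the ligands whose high-dose libraries all lay above the control libraries. They are the 250 bases before the transcript start in RefSeq (GRCm38.p6), written 5′ to 3′ on the strand of the gene. Windows for 5 of the 10 ligands were at hand. Capitals mark matches to the NF-kB consensus or to a core of the interferon-stimulated response element (GAAA, any 2 bases, GAAA), each searched on both strands. Cxcl10 lies on the minus strand (chr5:92348890-92349139), Cxcl2 on the plus strand (chr5:90903649-90903898) and Ccl6 on the minus strand (chr11:83593088-83593337).
Cxcl10: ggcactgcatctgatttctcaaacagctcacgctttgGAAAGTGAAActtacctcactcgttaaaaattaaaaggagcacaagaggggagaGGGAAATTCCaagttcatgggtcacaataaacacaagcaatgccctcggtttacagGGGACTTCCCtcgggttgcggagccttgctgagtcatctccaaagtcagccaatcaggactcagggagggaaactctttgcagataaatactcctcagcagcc
Cxcl2: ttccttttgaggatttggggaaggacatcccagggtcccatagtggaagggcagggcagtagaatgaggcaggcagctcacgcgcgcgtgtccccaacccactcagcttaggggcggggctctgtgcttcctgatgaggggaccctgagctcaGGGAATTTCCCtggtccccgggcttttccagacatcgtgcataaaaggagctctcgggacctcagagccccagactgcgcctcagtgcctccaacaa
Ccl6: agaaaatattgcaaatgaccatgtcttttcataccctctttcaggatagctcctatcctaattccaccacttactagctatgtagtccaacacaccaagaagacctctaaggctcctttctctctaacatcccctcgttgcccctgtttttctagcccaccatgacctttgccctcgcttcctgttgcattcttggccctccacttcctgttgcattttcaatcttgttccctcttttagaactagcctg
The Cxcl10 window held 2 matches to the NF-kB consensus, at 159 to 150 and at 103 to 94 bases before the start, and 1 match to the response element core, at 213 to 204 bases before it. The Cxcl2 window held the NF-kB consensus on both strands in overlapping positions, between 97 and 87 bases before the start. The Ccl6 window held neither. Among the other windows, that of Ccl9 held 1 NF-kB match, at 35 to 26 bases before the start on the opposite strand, and that of Ccl3 held none. Over 32851 windows of this length, 3.9% held the NF-kB consensus and 2.98% held the response element core. Such matches describe letters in the window and are not evidence that a factor was bound.

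Ccl2 and Ccl7, the monocyte attractants, did not pass the test in either direction. Ccl2 was at 159, 161 and 126 FPKM in control cells, at 135, 145 and 145 at low dose and at 148, 136 and 136 at high dose. Its log2 fold change at high dose against control was -0.08, with an interval from -0.29 to 0.13. Ccl7 was at 21.4, 19.6 and 15.4 FPKM in control cells, at 14.3, 17.7 and 17.3 at low dose and at 17.3, 12.7 and 14.1 at high dose. The groups overlapped, and the log2 fold change of Ccl7 was -0.34 ± 0.14 (unadjusted p = 0.0452, adjusted p = 0.248). Within groups, the deviations of Ccl2 and Ccl7 had a Pearson correlation of 0.875 over the 9 libraries. Transcripts of both averaged under 1000 nt, a class whose median over all tested genes also deviated between libraries, by 0.18 in high dose replicate 1. The part of transcript length in this correlation was not tested. The ratio of Ccl2 to Ccl7 was 7.42, 8.24 and 8.20 in control libraries, 9.41, 8.20 and 8.38 at low dose and 8.59, 10.7 and 9.64 at high dose. The high-dose ratios were above all control ratios, but the share of other gene pairs with such a separation was not computed.

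Ccl3 and Ccl4, abundant inflammatory ligands encoded side by side, varied together. Ccl3 was at 246, 228 and 217 FPKM in control cells, at 238, 226 and 244 at low dose and at 283, 220.0 and 230.0 at high dose. Ccl4 was at 164, 152 and 133 FPKM in control cells, at 141, 136 and 146 at low dose and at 209.6, 152 and 154 at high dose. High dose replicate 1 was the highest of the 9 libraries for both. The log2 fold change at high dose against control was 0.08 (interval -0.14 to 0.29) for Ccl3 and 0.19 (interval -0.10 to 0.47) for Ccl4. Without high dose replicate 1 that of Ccl3 was -0.03 and that of Ccl4 0.04. The within-group deviations of the pair had a correlation of 0.976, the highest among the ligands. Transcripts of both genes were shorter than 1000 nt. The deviations of Ccl3 in high dose replicates 1, 2 and 3 were 0.22, -0.14 and -0.08. All tested genes with transcripts shorter than 1000 nt had median deviations of 0.18, -0.09 and -0.07 in these libraries. The part of transcript length in the correlation was not tested. The ratio of Ccl3 to Ccl4 was 1.507, 1.501 and 1.626 in control libraries, 1.688, 1.654 and 1.675 at low dose and 1.349, 1.445 and 1.497 at high dose. The high-dose and low-dose ratios did not overlap, and the share of other gene pairs for which this holds was not computed.

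Ccl5, which binds CCR1, was the most variable of the tested ligands in treated cells, with a coefficient of variation of 41.6% at low dose and 44.5% at high dose against 10.6% in control cells. It was at 4.68, 4.91 and 5.71 FPKM in control cells, at 3.15, 3.21 and 6.19 at low dose and at 6.09, 2.29 and 4.502 at high dose. The treated libraries lay on both sides of the control libraries. The depth estimated from the spacing of low values put Ccl5 at only about 12 to 40.4 fragments in a library. Counting error therefore adds to its spread, and its part in the difference between groups was not tested. The interval of its log2 fold change at high dose against control ran from -0.94 to 0.39.

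High dose replicate 1 stood apart from the other libraries in a way that followed transcript length. Its values for tested genes with transcripts shorter than 1000 nt were above the high-dose group mean by a median of 0.18 on the log2 scale, and those for transcripts of 3000 nt or longer lay at a median of -0.13. In the other 8 libraries the medians for the short class were between -0.09 and 0.06. Lengths here are means over the annotated transcripts of a gene, which need not be those expressed. For Ccl6, the longest annotated 3′ untranslated region alone held 943 nt, above its mean transcript length of 886 nt. The transcripts of Ccl2, Ccl3, Ccl4, Ccl5, Ccl6 and Ccl7 averaged between 600.0 and 954 nt. Those of Cxcl10, Cxcl2, Ccl9 and Cxcl16 averaged between 1255 and 1876 nt. The median of the 1000 to 3000 nt class in high dose replicate 1 was 0.01. The deviations of these ligands in that library were 0.54 for Cxcl2, 0.19 for Cxcl16, 0.11 for Ccl9 and -0.18 for Cxcl10. High dose replicate 1 was the highest high-dose library for 9 of the 10 ligands, all but Cxcl10. With a correction for GC content and length, the log2 fold change at high dose against control was 0.12 for Ccl3 and 0.24 for Ccl4, and 6 of 9 ligands had an unadjusted p under 0.05, where 23.6% of all tested genes did under that correction. None of the 6 passed the adjusted threshold. The part of length in these values was not otherwise tested.

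**Figure D3:**
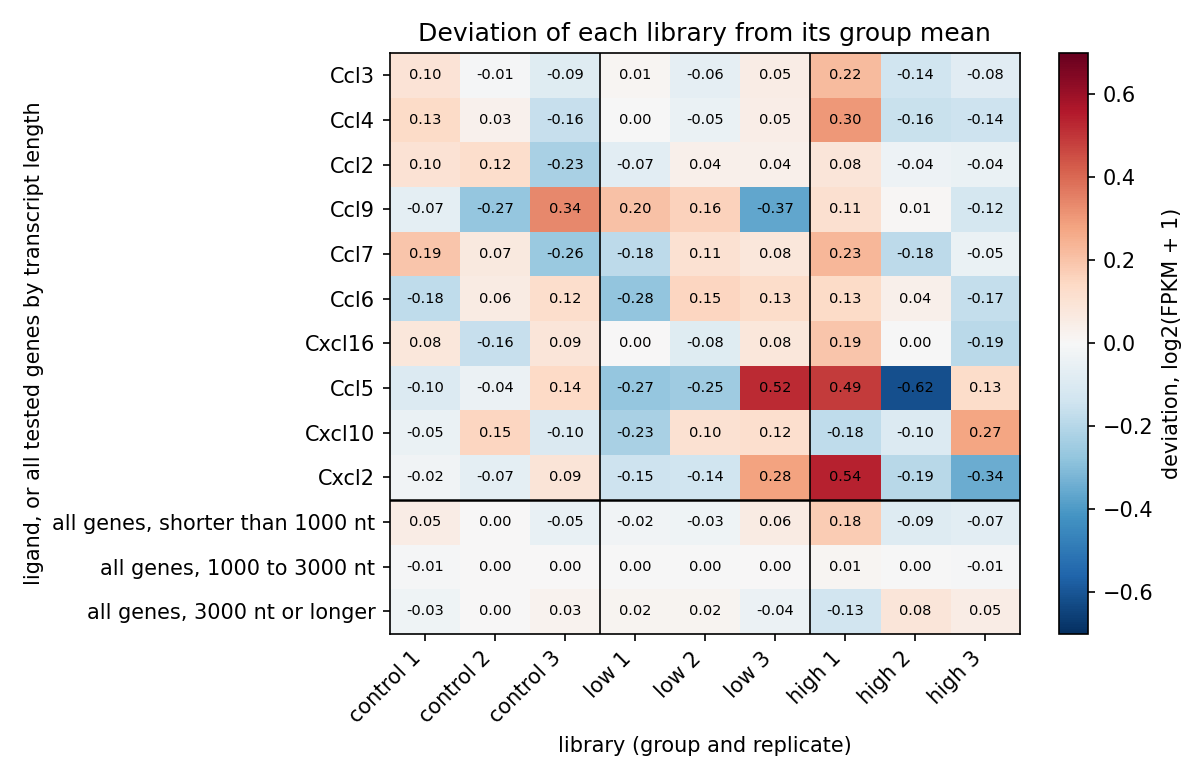
Deviation of each library from the mean of its group on the log2(FPKM + 1) scale, for the 10 ligands (upper part) and as the median over all tested genes in 3 classes of transcript length (lower part). Red is above the group mean and blue below it. High dose replicate 1 is above its group mean for 9 ligands and for transcripts shorter than 1000 nt.

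Beyond the 10 ligands, the chemokine family was sparsely expressed. Of 31 other chemokine ligands, 18 were listed at 0 in all 9 libraries, 10 were above 0 but under a mean of 1 FPKM, and 3 were tested. None of the 3 passed the adjusted threshold in any comparison. Pf4, the platelet factor that is also made by macrophages, was as abundant as the leading ligands, with means of 196 ± 25.5 FPKM in control cells, 169.7 ± 7.57 at low dose and 169.4 ± 23.2 at high dose. Ccl12, a monocyte attractant encoded in the cluster of Ccl2 and Ccl7, was at 2.13, 1.70 and 1.42 FPKM in control cells, at 1.79, 1.91 and 3.53 at low dose and at 3.04, 6.34 and 3.22 at high dose. Its high-dose libraries were above all control libraries, with a log2 fold change of 0.87 ± 0.26 (unadjusted p = 0.00945, adjusted p = 0.122). Ccl25 had a log2 fold change of 0.08 with an interval from -0.25 to 0.41. Ccl8, of the same cluster, was above 0 in 1 library, Cxcl1 was at 0 throughout, and Cxcl3, the closest relative of Cxcl2 here, did not exceed 0.0954 FPKM.

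The receptors for these ligands were expressed at low levels. Of 23 chemokine receptors, 4 were at 0 in every library and only Cxcr3 and Cxcr4 reached a mean of 1 FPKM. Cxcr3, the Cxcl10 receptor, had a mean of 1.12 FPKM and a log2 fold change at high dose against control of 0.02 (interval -0.30 to 0.33). Cxcr4, which binds Cxcl12, was at 5.12, 6.03 and 5.13 FPKM in control cells, at 3.89, 4.04 and 4.28 at low dose and at 4.55, 3.92 and 3.71 at high dose. All treated libraries were below all control libraries, with log2 fold changes of -0.34 ± 0.09 at low dose (adjusted p = 1) and -0.35 ± 0.09 at high dose (adjusted p = 0.0974). Ccr1, the receptor of Ccl3, Ccl5, Ccl6 and Ccl9, was at 0.289, 0.386 and 0.483 FPKM in control cells and at 0.530, 0.767 and 0.523 at high dose. Ccr2 had a mean of 0.0159 FPKM, Cxcr2 of 0.00279 and Cxcr6 of 0.142.

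Genes of the pathways that act on chemokine transcripts did include some that passed the test. Of 14 NF-kB genes, all tested, 1 rose and 1 fell at high dose against control, where 2.11% of all tested genes passed. Rela, the p65 subunit, rose from a mean of 21.3 ± 0.759 to 25.8 ± 0.420 FPKM (log2 fold change 0.27 ± 0.05, adjusted p = 0.0370), a call that was lost when any library but high dose replicate 1 was left out, with adjusted p up to 0.153. Nfkbiz, a nuclear inhibitor-like protein that acts as a co-regulator of secondary NF-kB target genes, fell from 31.5 ± 0.816 to 20.4 ± 1.24 FPKM (-0.60 ± 0.06, adjusted p = 0.00351). The Nfkbiz call against control held in all 19 alternatives. Nfkbiz also fell at high dose against low dose (-0.66 ± 0.06, adjusted p = 0.00424), a call lost with only the 6 libraries compared (adjusted p = 0.0606). The median log2 fold change of the 14 genes at high dose against control was -0.08.

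Among 16 interferon-stimulated genes, 9 were tested, of which 1 rose and 0 fell at high dose against control (2.11% of all tested genes passed) and 2 rose at high dose against low dose (0.851%). Oasl1, a regulator of the antiviral response, was at 30.8, 34.8 and 33.2 FPKM in control cells, at 33.4, 37.4 and 36.1 at low dose and at 60.3, 51.9 and 57.6 at high dose. The high-dose libraries lay above all others (log2 fold change 0.76 ± 0.07, adjusted p = 0.00351), and this call held in all 19 alternatives. Oasl1 also rose at high dose against low dose (0.65 ± 0.07, adjusted p = 0.0113), a call lost in 4 of the 19 alternatives (adjusted p up to 0.0727). Rtp4 rose at high dose against low dose (0.95 ± 0.15, adjusted p = 0.0323), with means of 3.25 ± 0.423 and 1.22 ± 0.411 FPKM, a call lost in 7 of the 9 fits that left out 1 library (adjusted p up to 0.131). The median log2 fold change of the 9 genes was 0.25 at high dose against control and -0.05 at low dose against control. Of the 12 tested genes of interferon signalling, among them Irf1, 0 passed the adjusted threshold in any comparison.

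Many chemokine transcripts carry AU-rich elements in the 3′ untranslated region, to which decay factors such as the Zfp36 proteins bind. The motif ATTTA occurred 5 times in the 409 nt of Ccl3, 11 times in the 1494 nt of Cxcl2 and 2 times in the 302 nt of Ccl4, by the GENCODE M21 annotation. As a density, Ccl3 held 12.2 per kb, Cxcl2 7.36 and Ccl4 6.62, against a median of 1.39 per kb over 9521 tested genes. The density per kb was 4.598 for Ccl7, 4.24 for Ccl6, 3.64 for Ccl2 and 3.01 for Cxcl10. It was 2.03 for Ccl9 and 1.41 for Cxcl16, and the 199 nt of Ccl5 held 0 matches. Of 8 mRNA decay regulators, all tested, Zfp36l1 fell at high dose against control, from 12.5 ± 1.17 to 7.87 ± 0.521 FPKM (log2 fold change -0.61 ± 0.11, adjusted p = 0.0309), where 2.11% of all tested genes passed. Zfp36 fell at high dose against low dose (-0.44 ± 0.08, adjusted p = 0.0448), where 0.851% did. None of the other 6 passed in any comparison. The Zfp36 family did not share 1 direction at high dose against control. Zfp36l2 had a log2 fold change of 0.23 ± 0.05 (adjusted p = 0.0657) and Zfp36 of -0.33 ± 0.08 (adjusted p = 0.0657) there. The Zfp36l1 call was lost in 6 and the Zfp36 call in 7 of the 9 fits that left out 1 library, with adjusted p up to 0.136 and 0.163. Without the filter on low values neither passed (adjusted p = 0.0662 and 0.0690), and Zfp36 was also lost under the GC content and length correction (0.0669) and without the trend (0.0547).

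Of 7 enzymes that cut or shed chemokines, 6 were tested. Mmp9, a secreted gelatinase, fell at high dose against control (log2 fold change -0.37 ± 0.07, adjusted p = 0.0411) and against low dose (-0.50 ± 0.07, adjusted p = 0.0249), and each call was lost in 8 of the 9 fits that left out 1 library, with adjusted p up to 0.146 and 0.129. Adam10 and Adam17, the proteases that release Cxcl16 from the membrane, had mean levels of 38.2 and 85.3 FPKM and did not pass. Among the 8 tested macrophage markers, Adgre1, which encodes the F4/80 antigen, fell from 202 ± 4.64 to 127 ± 8.89 FPKM (log2 fold change -0.67 ± 0.06, adjusted p = 0.00224). The summed FPKM of the 10 macrophage markers was 1006 to 1080.3 in control libraries, 996 to 1045 at low dose and 897 to 955 at high dose, with Cd68 as the most abundant gene in each. Without Adgre1 the sum of the other 9 was 805 to 881 FPKM in control libraries and 766 to 838 at high dose, which overlapped. The other tested markers all had negative log2 fold changes at high dose against control, and none passed the adjusted threshold. They were -0.65 for Aif1 (adjusted p = 0.0841), -0.21 for Csf1r (adjusted p = 0.0783), -0.20 for Itgam and -0.15 for Ptprc. Tmem119 had -0.10, and Cd68 and Spi1 had -0.03 each. All samples were of 1 line. A smaller share of its cells with a transcript and less of that transcript per cell cannot be told apart in such bulk samples. The part of these marker values in the ligand values was not tested.

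**Figure D4:**
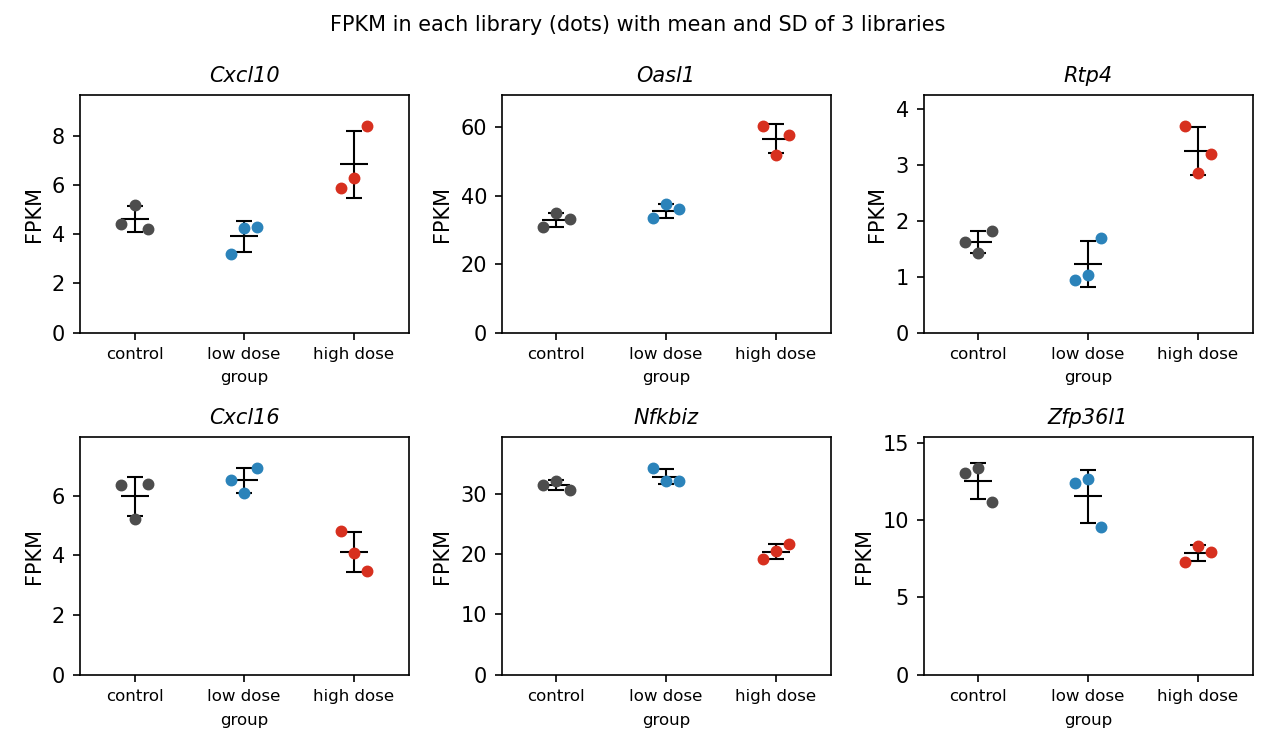
FPKM of Cxcl10 and Cxcl16 beside interferon-stimulated genes (Oasl1, Rtp4) and regulators (Nfkbiz, Zfp36l1) in each library (dots), with mean and SD of 3 libraries. The 3 high-dose libraries lie above all others for Cxcl10, Oasl1 and Rtp4 and below all others for Cxcl16, Nfkbiz and Zfp36l1.

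Profiles over the 9 libraries were also compared gene by gene. The gene with the highest Pearson correlation was Thap4 for Cxcl10 (r = 0.952), Cyp27a1 for Cxcl16 (0.966), Nme6 for Ccl4 (0.985), Clns1a for Ccl3 (0.979), Gm6542 for Ccl7 (0.978), Gm14057 for Ccl6 (0.979), Clta for Cxcl2 (0.984), Dancr for Ccl5 (0.947), Rn7sk for Ccl2 (0.935) and Uba3 for Ccl9 (0.915). Each was the best of about 11160 tested genes over only 9 libraries that share their groups. The libraries also deviated with transcript length, most in high dose replicate 1, so the values are a description. No ligand was the nearest gene of another ligand. Between ligands the lowest correlation was that of Cxcl10 and Cxcl16, -0.936 over the 9 libraries and -0.73 within groups.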

How the data were processed

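RNA of BV2 cells was sequenced in 9 libraries, 3 a group, after oligo(dT) selection and a stranded kit. The deposited values are FPKM, which the authors computed per gene and library with Cufflinks 2.1.1 (Ensembl release 77, GRCm38) from TopHat alignments. The groups were read from the labels. All value columns were mapped to a sample.

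From the table, FPKM was transformed to log2(FPKM + 1), which understates changes of low genes. The 11161 genes whose mean over the libraries reached 1 FPKM were fitted with limma 3.58.1 in R 4.3.3 (lmFit, eBayes with trend), with all 3 groups in 1 fit and Benjamini-Hochberg adjustment over all tested genes at 0.05. Errors with a fold change are SE. The script was tested on simulated data. Depth is not stated. The spacing of low values gave approximately 13040000 to 16560000 fragments a library, with 73.7% to 81.8% of low values within 0.25 of a whole fragment.

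The members, lists and tests were chosen with earlier results of these data known. Named were the 10 ligands in every library, other ligands that were tested, Ccl8, Cxcl1 and Cxcl3 as ligands near members in position or sequence, receptors of the ligands, list genes past the adjusted threshold in any comparison, defining markers, and for each ligand the gene with the highest correlation. Irf8 and Tubb3 were not used here. Alternatives covered the pseudocount (0.1, 0.01), the filter, normalization, a GC content and length correction (loess span 0.5), the moderation, the libraries in the fit, a replicate block and leaving out each library. Promoter sequences came from RefSeq (GRCm38.p6), and transcript lengths and biotypes from GENCODE M21. Analyses of sequence and figures used Python 3.11.15 with pandas 2.3.3, numpy 2.4.6 and matplotlib 3.10.9.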

Additional observations from a re-analysis of the deposited data

Results flagged for a closer look

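The test left out 1 of the 10 ligands, 28 other chemokine ligands and 21 chemokine receptors, each under a mean of 1 FPKM. Those whose treated libraries all lay above the control libraries are given here. The share of such genes among all genes at these levels was not computed. At high dose these were Cxcl2, with a mean of 1.43 FPKM (0.941 without high dose replicate 1) against 0.532 in control cells, and Ccr1, with 0.606 FPKM against 0.386. At low dose they were Cxcr6, with 0.201 FPKM against 0.0479, and Xcr1, with 0.0712 FPKM against 0.0267. In the other direction, the libraries of Cxcr5 at high dose lay below all control libraries, with a mean of 0.708 FPKM against 1.03, and those of Ccl28 at low dose did so with 0.0148 FPKM against 0.0378. At these levels a library holds few fragments of each gene, and the differences carry counting error beside the spread between libraries.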

How the results depend on the processing

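The count of ligands past the adjusted threshold was 0 in each alternative that left out no replicate. Leaving out 1 library at a time gave 0 to 1 ligands at high dose against control and at high dose against low dose, the 1 being Cxcl16 without high dose replicate 1, and 0 at low dose against control. The number of ligands at an unadjusted p under 0.05 ran from 2 to 6 at high dose against control, from 0 to 1 at low dose against control and from 2 to 3 at high dose against low dose. Under the same alternatives the share of all tested genes ran from 14.1% to 24.3%, from 2.22% to 6.33% and from 9.94% to 18.0%. This count was added as an alternative after seeing the data.

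Gene numbers over the whole table varied more. The GC content and length correction gave 521 genes at high dose against control and 203 at high dose against low dose. With only the 6 libraries compared, the numbers were 22 and 6, and 1 at low dose against control. In those fits Rela, Zfp36l1 and Mmp9 at high dose against control (adjusted p from 0.0748 to 0.133) and Nfkbiz, Oasl1, Rtp4, Zfp36, Mmp9 and Adgre1 at high dose against low dose (0.0606 to 0.126) no longer passed. Without the filter on low values, 4 genes passed at low dose against control, where the fit gave 0 and 366 genes had an unadjusted p under 0.05, and Mmp9 at high dose against control (adjusted p = 0.0662) and Rtp4 at high dose against low dose (0.0535) no longer passed. Leaving out 1 library gave 31 to 539 genes at high dose against control, 0 to 2 at low dose against control and 8 to 191 at high dose against low dose, the highest of the first and the last without high dose replicate 1. The replicate block gave 106, 0 and 13 genes and 0 ligands. Same-numbered libraries had correlations of their deviations from -0.088 to 0.152, so the numbers were not taken to pair the libraries. Under the block, Rela and Mmp9 at high dose against control and Oasl1, Rtp4, Zfp36 and Mmp9 at high dose against low dose no longer passed, with adjusted p from 0.0516 to 0.125. The causes were not tested.

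Some ligands and receptors, none of which had passed the adjusted threshold, changed direction, nearly always with 1 library left out. At high dose against control, leaving out 1 library gave -0.033 to 0.147 for Ccl3, -0.517 to 0.037 for Ccl5, -0.076 to 0.225 for Ccl25 and -0.047 to 0.122 for Cxcr3. At low dose against control it gave -0.0091 to 0.083 for Ccl3, -0.307 to 0.0099 for Ccl9 and -0.033 to 0.101 for Ccl25. At high dose against low dose it gave -0.056 to 0.0072 for Ccl2, -0.068 to 0.113 for Ccl3, -0.236 to 0.318 for Ccl5, -0.107 to 0.194 for Ccl25, -0.074 to 0.044 for Cxcr4 and -0.111 to 0.084 for Pf4. In the same comparison the GC content and length correction gave -0.022 for Ccl5 and quantile normalization 0.030 for Cxcr4. The order of levels in control cells changed within Ccl4 and Ccl2, within Ccl9 and Ccl7 and within Ccl5 and Cxcl10 when 1 control library was left out, and median-of-ratios rescaling did not change it.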
